A study of Homo sapiens with 8 samples.

Results

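The ubiquitin system tags proteins with ubiquitin, a small protein that marks its targets for the proteasome or changes where and how they act. A conjugating enzyme carries activated ubiquitin, a ligase brings that enzyme to a chosen target, and a deubiquitinase removes the tag. Most ligases hold a RING or HECT domain in the same protein, whereas cullin complexes pair a scaffold with exchangeable substrate receptors such as F-box and kelch proteins. N6-methyladenosine (m6A), the most common internal mark of messenger RNA, is often found near stop codons and in the last exon, and it is read by proteins that act on splicing, decay and translation.

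The genes described here are those of the ubiquitin ligase, conjugating and deubiquitinase families, chosen by the root of their symbol (USP, OTUD, UBE, RNF, TRIM, FBXL, FBXO, FBXW, CUL, KLHL, KBTBD, DCAF, HERC, UBR, HECT, NEDD4, MARCH, UBXN, BIRC6, HUWE1, CBL, SMURF, WWP, ITCH). Antisense names were left out, which removed 1 gene name. In the authors' deposited table of the study's only comparison, 125 of 4626 features (2.7%) under 91 of 3114 gene names met that rule. They fell into 87 ligase features (63 genes), 7 conjugating enzyme features (5 genes) and 26 deubiquitinase features (19 genes). The 2 features of BIRC6, whose protein is both a conjugating enzyme and a ligase, were counted on their own. The 3 features of UBXN4, UBXN6 and UBXN7, adaptors of the ATPase VCP, stood outside the classes.

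The study compared wild-type HL-60 cells given decitabine with the same cells given its vehicle DMSO. HL-60 is an established promyelocytic line grown from human leukaemia. Decitabine is a deoxycytidine analogue that traps DNA methyltransferases, and per the labels' protocols 3 additions of 100 nM were made (first at 0, then at 24 and at 48 hours), and RNA was taken at 72 hours. The 8 libraries form 4 groups of 2 (anti-m6A immunoprecipitate and input, with decitabine and with DMSO), which the labels describe only as duplicates of a single cell line. No other cell type, strain or genotype was compared.

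Each feature per the authors' deposited table is a short stretch of a transcript with a natural log ratio of m6A signal and a p-value, and every feature there had already passed the authors' threshold. The lowest fold listed was 1.65 and the highest p-value 0.00455. Ratios are given below as a fold of the larger over the smaller arm with a sign. A positive sign probably means more signal with decitabine, although no source states which arm is the numerator. The table holds 1 value per feature and none per library, so no replicate spread, error or depth is given for any ratio. Its correction for input is unknown too, so a ratio can also reflect a different level of the RNA. Many of the largest ratios are multiples of 0.5, called stepped here. Where that form comes from was not tested. A gene with several features is represented by the one of smallest p-value, its leading feature, where genes are counted.

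The families carried m6A features of both signs in nearly equal numbers. In the authors' deposited table, 66 member features were positive and 59 negative, a positive share of 52.8% (95% Wilson interval 44.1 to 61.3), beside 56.3% positive and 43.7% negative over all listed features. By leading feature, 47 genes were positive and 44 negative (51.6%), beside 58.9% positive over all listed genes. The intervals cover the counting of features only. The ligases stood at 48 positive and 39 negative features (55.2%, interval 44.7 to 65.2) and the deubiquitinases at 15 and 11 (57.7%, interval 38.9 to 74.5). The conjugating enzymes had 2 positive and 5 negative features (28.6%, interval 8.22 to 64.1). These intervals overlapped each other and held the share of the whole table, so no class was told apart by its sign.

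**Figure D1:**
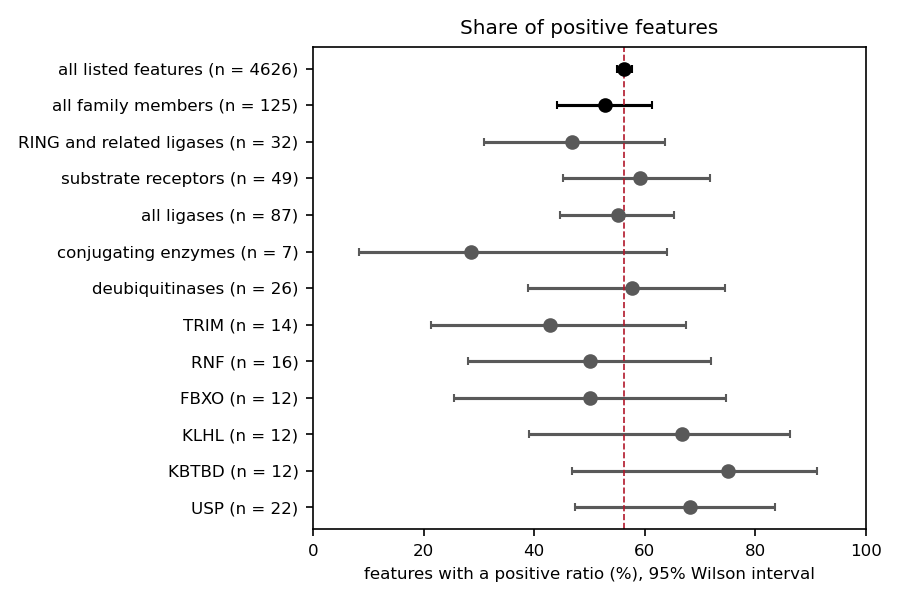
Share of features with a positive ratio (x axis, percent) in the whole table, in all family members, in the classes and in the families with 12 or more features, with 95% Wilson intervals as bars. The dashed line marks the 56.3% of all listed features, which lies inside the interval of every family group drawn.

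The sizes of the ratios were set beside those of the whole table and between the classes, without a test. A ratio of 10-fold or more was listed for 46 of the 125 member features (36.8%), beside 38.5% of all listed features, and a stepped ratio for 33 (26.4%), beside 30.6%. The median positive member feature was 4.74-fold per the authors' deposited table, beside 10.1-fold over all positive features, with stepped ratios in 34.8% of the former and 44.2% of the latter. On the negative side the members' median was 5.07-fold, beside 3.95-fold over all negative features. The negative deubiquitinase features had a median of 19.5-fold, with 7 of 11 (63.6%) at 10-fold or more. The negative ligase features had a median of 4.69-fold, with 8 of 39 (20.5%) at 10-fold or more. Over all negative features that share was 23.5%. Some of the 7 deubiquitinase features share a gene, OTUD7B or USP1. Among the negative features, 4 of the 11 and 3 of the 39 were stepped. On the positive side the median was 4.78-fold for deubiquitinases and 4.68-fold for ligases. Without stepped ratios the positive ligase median was 2.95-fold, the negative deubiquitinase median 9.95-fold, and 46.7% of the member features were positive, beside 45.3% of all listed features.

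**Figure D2:**
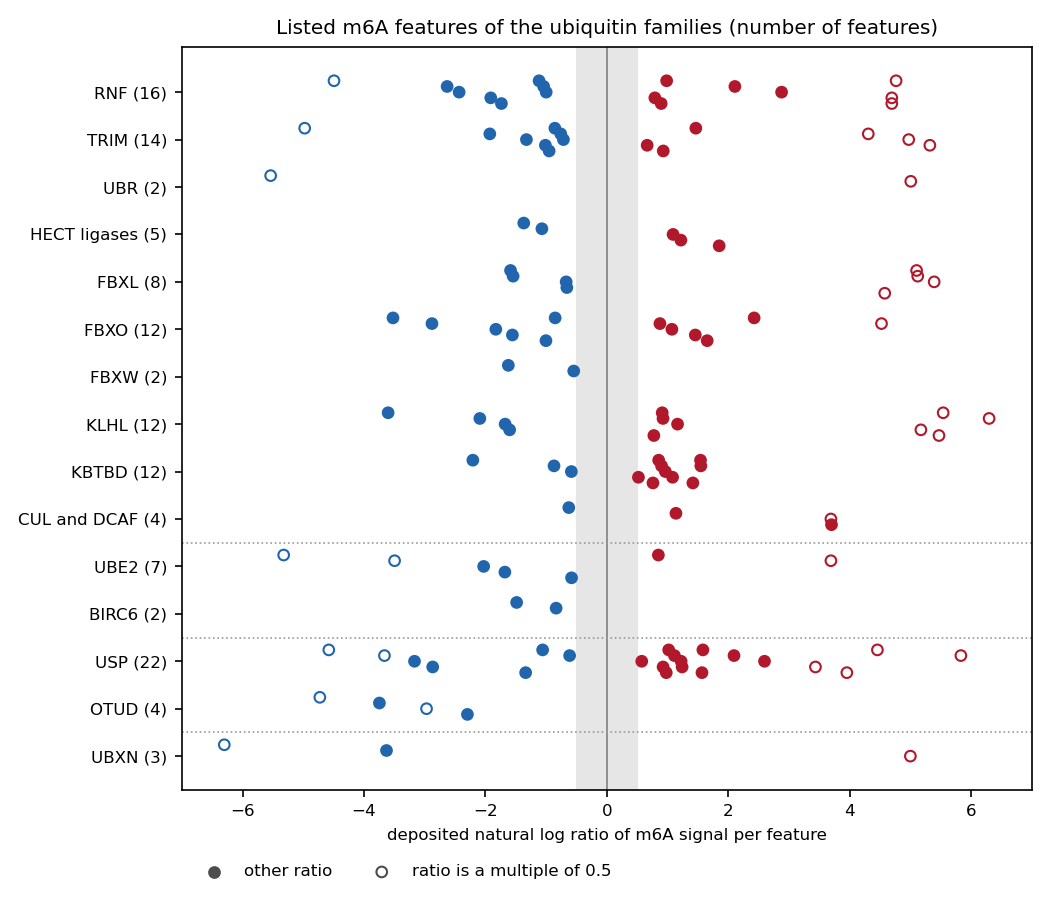
Deposited natural log ratio (x axis) of each of the 125 member features, by family (y axis, number of features in brackets), red for positive and blue for negative, with open points for ratios that are multiples of 0.5. The grey band from -0.5 to 0.5 holds no listed feature, all 4 OTUD features lie to its left, and 15 of the 22 USP features lie to its right.

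Among the conjugating enzymes, UBE2K, which extends ubiquitin chains, was at a negative 205-fold stepped ratio per the authors' deposited table (chromosome 4, 39778559 to 39778608, p = 5.7e-05). UBE2O, a large enzyme that combines conjugating and ligase activity and clears ribosomal proteins from maturing red cells, held 3 features, all negative. Their values per the authors' deposited table were 33.0-fold (stepped, p = 0.00061), 5.37-fold (p = 0.0039) and 1.79-fold (p = 0.0013), at 10026, 1640 and 249 nt from the 3' end of the span. UBE2G2, a conjugating enzyme of endoplasmic reticulum-associated degradation, and the related UBE2G1 differed in sign, with UBE2G2 at a positive 2.33-fold (p = 0.0035) and UBE2G1 at a negative 7.61-fold (p = 0.00067) per the authors' deposited table. Of 36 protein-coding UBE2 symbols in RefSeq, 5 had a listed feature (13.9%), close to the 13.3% of all protein-coding symbols. Genes that HL-60 cells do not express cannot be listed, so such shares describe coverage only.

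The RNF genes, a numbering of RING finger proteins with little else in common, were split evenly, with 8 positive and 8 negative features over 12 genes. RNF126, a ligase of misfolded cytosolic proteins, had a positive 117-fold stepped feature 99 nt from its 3' end per the authors' deposited table (chromosome 19, 647625 to 647674, p = 8.8e-06). RNF121 and RNF125 both stood at a positive 109-fold per the authors' deposited table, both stepped, yet their p-values were 2.6e-05 and 0.0026. RNF125 is a ligase that limits antiviral signalling by RIG-I. RNF139, a membrane ligase of the endoplasmic reticulum that takes part in sterol-regulated degradation, was negative at both of its features, 89.5-fold (stepped, p = 0.00043) and 13.9-fold (p = 0.0016) per the authors' deposited table. RNF145, a related sterol-responsive ligase, held a positive 2.44-fold feature (p = 0.0013) and a negative 5.68-fold feature (p = 0.0024) 297 nt apart per the authors' deposited table.

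RING ligases that act on chromatin were listed with several patterns. RNF40, a subunit of the ligase that ubiquitylates histones along transcribed genes, had positive features of 8.23-fold (p = 0.0013) and 17.7-fold (p = 0.0015) at 1145 and 647 nt from the gene's 3' end per the authors' deposited table. RNF168, which ubiquitylates histones beside DNA breaks, was positive at a 2.67-fold feature (chromosome 3, 196488631 to 196488680, p = 0.00031) and negative at an 11.4-fold feature 400 nt from its 5' end (p = 0.0012) per the authors' deposited table. RNF4, a ligase of SUMO-modified proteins, was at a negative 2.84-fold per the authors' deposited table (chromosome 4, 2513816 to 2513865, p = 0.00011). The remaining RNF genes with 1 feature each were RNF26 at a positive 2.2-fold, and RNF130, RNF113A and RNF208 at a negative 2.72-fold, 3.06-fold and 6.77-fold per the authors' deposited table.

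Most TRIM proteins, though not all, carry a RING, B-boxes and a coiled coil, and many act in antiviral defence. By leading feature 5 TRIM genes were positive and 8 negative (38.5% positive, Wilson interval 17.7% to 64.5%, which holds the 58.9% of all listed genes). The authors' deposited table placed TRIM8 at a positive 144-fold (chromosome 10, 102654586 to 102654635, p = 1.2e-05), TRIM73 at 204-fold (p = 0.00084) and TRIM56 at 74.0-fold (p = 0.00034), all 3 stepped. TRIM56 binds viral RNA and promotes interferon induction. TRIM35, which lies on the negative side, had a 145-fold stepped ratio 298 nt from its 5' end per the authors' deposited table (p = 0.00071). The other negative leading features were small. In the authors' deposited table they ran from 2.05-fold in TRIM41 to 6.88-fold in TRIM45 (p = 7.6e-05), with the antibody receptor TRIM21 at 2.14-fold and TRIM14 at 3.76-fold between them. Of the genes in the extended major histocompatibility region on chromosome 6, TRIM26 (2.36-fold) and TRIM27 (2.75-fold) were negative and TRIM39 was positive at 4.32-fold (p = 0.00039) per the authors' deposited table. TRIM24, a bromodomain protein and ligase of p53, held a negative 2.59-fold (p = 0.00037) and a positive 1.94-fold (p = 0.0045) feature 199 nt apart per the authors' deposited table. TRIM11 was listed at a positive 2.53-fold (p = 0.0043) per the authors' deposited table.

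The UBR genes encode recognition proteins for unstable protein ends, and 2 of them were listed with opposite signs. UBR3 was at a negative 254-fold (chromosome 2, 169949997 to 169950046, p = 0.00018) and UBR2 at a positive 149-fold 283 nt from its 5' end (p = 0.0015) per the authors' deposited table, both stepped. HECT ligases pass ubiquitin through their own active site before the target, and their 5 features held no stepped ratio. UBE3B was at a positive 3.38-fold (p = 0.00012) and WWP2 at a positive 2.97-fold (p = 0.00033) per the authors' deposited table. The feature named ITCH, at a negative 3.93-fold (p = 0.00058) per the authors' deposited table, lay beyond the end of the RefSeq span of ITCH and inside that of DYNLRB1, so its gene is uncertain. BIRC6, a giant inhibitor of apoptosis, was negative at both features, 4.42-fold (p = 0.0019) and 2.31-fold (p = 0.0028) per the authors' deposited table. Of the RefSeq protein-coding symbols with the roots CBL (10), MARCH (11), HERC (6), NEDD4 (2), SMURF (2), UBE4 (2) and HUWE1 (1), none was among the listed features. Of all protein-coding symbols 13.3% were listed. The CBL root also takes in CBLN and CBLIF symbols, which are not ligases and were placed outside the classes.

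Substrate receptors of cullin complexes supplied 49 features over 31 genes, 29 positive and 20 negative, beside 56.3% positive in the whole table. All 10 stepped ratios among them were positive, beside 1151 of the 1415 stepped ratios in the whole table. Of 128 protein-coding receptor symbols, 31 were listed (24.2%), beside 13.3% of all protein-coding symbols. By family the listed shares were 44.4% of 9 KBTBD, 41.2% of 17 FBXL, 22.2% of 36 FBXO, 21.6% of 37 KLHL, 20.0% of 10 FBXW and 10.5% of 19 DCAF symbols. Among the scaffolds CUL3, which serves the kelch and BTB receptors, was the only cullin of 8 to be listed, at a positive 3.12-fold per the authors' deposited table (chromosome 2, 224474184 to 224474233, p = 0.0031).

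FBXL proteins join a leucine-rich repeat to the F-box that docks on SKP1. FBXL12 had the smallest p-value of all members. Its feature per the authors' deposited table (ENSG00000127452.9, chromosome 19, 9810514 to 9810662, minus strand) was a positive 219-fold stepped ratio with p = 5.1e-12, 244 nt from the 3' end. FBXL5, an iron sensor that degrades iron regulatory proteins, was led by a feature at a positive 164-fold (chromosome 4, 15612326 to 15612375, p = 5.6e-07), with another at a negative 4.89-fold (p = 0.0012) per the authors' deposited table. FBXL14 stood at a positive 97-fold (p = 0.0032) per the authors' deposited table, and all 4 positive FBXL ratios listed were stepped. The negative FBXL genes had much smaller ratios per the authors' deposited table, at 4.69-fold in FBXL15 (p = 0.00018), 1.96-fold in the CpG island binding protein FBXL19 and 1.93-fold in the mitochondrial FBXL4.

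FBXO and FBXW genes were mixed. In the authors' deposited table FBXO46 was at a positive 11.3-fold (chromosome 19, 45712467 to 45712516, p = 6.5e-05) and FBXO28 at positive 5.21-fold (p = 0.00015) and 2.92-fold features. FBXO5, better known as EMI1, restrains the anaphase-promoting complex before mitosis and was at a negative 33.9-fold (p = 0.0039) per the authors' deposited table. FBXO42, a receptor of p53, was at a negative 17.8-fold (p = 0.0027), FBXO25 at a negative 2.73-fold (p = 0.00052) and FBXO22 at a positive 2.39-fold (p = 0.002) per the authors' deposited table. FBXO31, a receptor of cyclin D1, held 3 features within 647 nt that alternated in sign, a negative 6.23-fold (p = 0.00042), a positive 4.29-fold (p = 0.00016) and a negative 4.74-fold (p = 0.004) per the authors' deposited table. FBXO45 was led by a negative 2.35-fold feature (p = 0.00018) and held a positive 92-fold stepped ratio (p = 0.0035) 448 nt away per the authors' deposited table. Both FBXW genes were negative. FBXW7, a tumour suppressor that degrades cyclin E and MYC, was at 1.73-fold (p = 0.0013) and FBXW5 at 5.07-fold (p = 0.0006) per the authors' deposited table.

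Among the kelch receptors of CUL3, 8 of 12 KLHL features (66.7%, Wilson interval 39.1% to 86.2%) and 9 of 12 KBTBD features (75.0%, 46.8% to 91.1%) were positive, and both intervals hold the 56.3% of all listed features. KBTBD2 and KBTBD11 supplied 8 of those 9 KBTBD features. KLHL18 had the largest positive ratio of all members, a stepped 541-fold feature per the authors' deposited table (ENSG00000114648.12, chromosome 3, 47345026 to 47345075, plus strand, p = 5.3e-08), beside a positive 2.17-fold feature. KLHL21, which directs the aurora B kinase in dividing cells, was positive at both ends of its span, at 176-fold (p = 5.1e-07) 2234 nt from the 3' end and 237-fold (p = 0.00064) 770 nt from the 5' end per the authors' deposited table, both stepped. KLHL28 held a positive 254-fold stepped feature (p = 0.00056) and a negative 36.7-fold feature (p = 0.0023) 249 nt apart per the authors' deposited table. KLHL9, which also acts on aurora B, had positive features of 3.20-fold and 2.52-fold per the authors' deposited table, and KLHL24 a positive 2.49-fold feature. On the negative side of the authors' deposited table were KLHL36 at 5.34-fold (p = 7e-05), KLHL23 at 4.96-fold (p = 0.00027) and KLHL15 at 8.11-fold (p = 0.0022). The KLHL23 feature also lies in the readthrough gene PHOSPHO2-KLHL23.

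The KBTBD genes held 12 features, none of them stepped. KBTBD2, a CUL3 receptor that sets insulin signalling through a subunit of phosphoinositide kinase, had 4 positive features within 650 nt. The authors' deposited table gave these as 2.35-fold (p = 0.00054), 4.12-fold (p = 0.00015), 2.13-fold (p = 0.0023) and 4.70-fold (p = 0.00017), between 1200 and 1800 nt from the 3' end. KBTBD11 had 6 features over 6414 nt. In order along the gene the authors' deposited table gave them as a positive 4.67-fold, a negative 1.80-fold, a positive 2.46-fold, a negative 9.09-fold, a positive 2.95-fold and a positive 1.68-fold. The sign alternated from each to the next over the first 5 of these. The leading feature was the positive 2.95-fold one (chromosome 8, 2004699 to 2004748, p = 0.00038 per the authors' deposited table). KBTBD8 was at a positive 2.62-fold (p = 0.00082) and KBTBD4 at a negative 2.39-fold (p = 0.00099) per the authors' deposited table. DCAF1, a receptor of the CUL4 complex and the target of a viral accessory protein, had positive features within 21476 nt. They were at 40.0-fold (stepped, p = 6.6e-07) and 40.4-fold (not stepped, p = 4.2e-05) per the authors' deposited table. DCAF5 had a negative 1.87-fold feature.

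**Figure D3:**
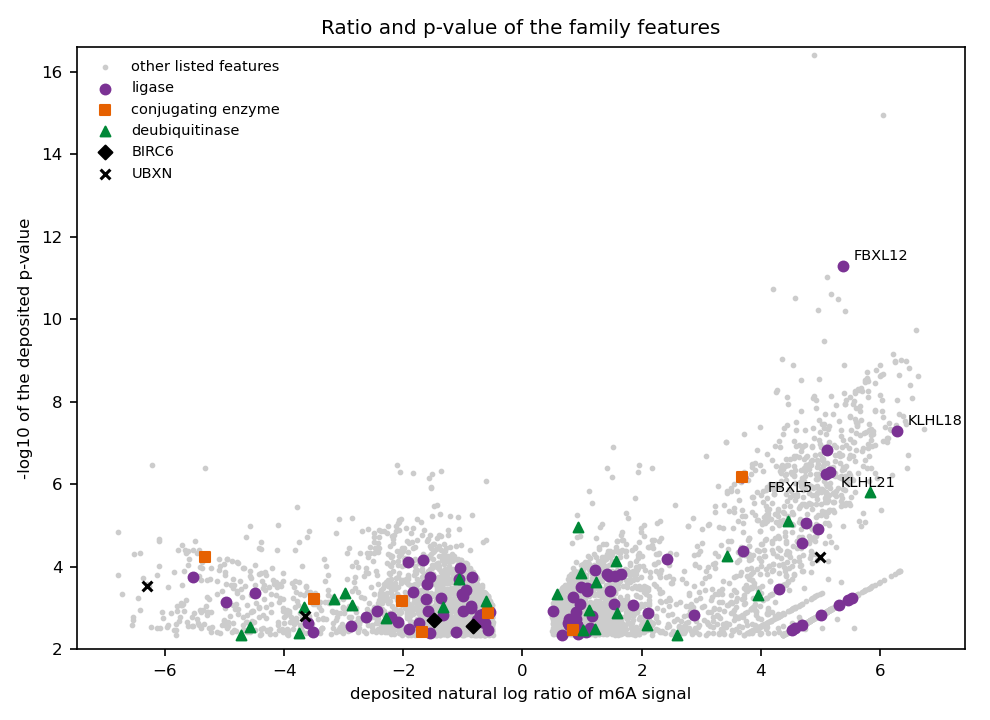
Deposited natural log ratio (x axis) against -log10 of the deposited p-value (y axis) for the member features by class, over the other listed features in grey, with names for some members of small p-value. FBXL12 stands highest among the members, all named members are positive, the point of DCAF1 is covered by that of another member, and a non-member beyond the right edge is not drawn.

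Among the deubiquitinases, most listed USP features were positive and the few OTUD features were negative. The USP genes had 15 positive and 7 negative features over 16 genes (68.2%, interval 47.3 to 83.6), beside 56.3% in the whole table. All 4 OTUD features were negative, over 3 genes, with an interval of 0 to 49.0% positive. The USP interval held the share of the whole table and the OTUD interval lay below it, but 2 of the 4 OTUD features belong to the same gene, and the difference was not tested.

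USP42, a deubiquitinase linked to p53 and to transcription, had the largest positive ratio of the class and 3 positive features. The authors' deposited table gave them as 340.0-fold (stepped, chromosome 7, 6149685 to 6149734, p = 1.5e-06), 4.78-fold (p = 7.2e-05) and 3.04-fold (p = 0.0011). USP16, which removes ubiquitin from histones before mitosis, was at a positive 86.0-fold (stepped, p = 8e-06) at 250 nt from the gene's 3' end per the authors' deposited table. USP27X and USP51, related deubiquitinases of histones, were at a positive 31.0-fold (stepped, p = 5.4e-05) and 2.77-fold (p = 0.0035) per the authors' deposited table. USP3, another histone deubiquitinase, had the opposite sign at a negative 39.0-fold (stepped, p = 0.00098) per the authors' deposited table. USP7, which stabilises MDM2 and p53, was at a negative 3.81-fold (p = 0.00097) and the nucleolar USP36 at a negative 2.88-fold (p = 0.0002) per the authors' deposited table.

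USP1, which removes ubiquitin from FANCD2 and PCNA in DNA repair, carried features of both signs. In the authors' deposited table it was led by a positive 2.52-fold feature (chromosome 1, 62450515 to 62450614, p = 1.1e-05), with a negative 97.5-fold stepped feature (p = 0.0029) 99 nt from it and a negative 17.6-fold feature (p = 0.00084) further 5'. It was the only deubiquitinase of the 5 with several features to hold both signs. USP24 was positive at 4.86-fold (p = 0.0014) and 13.4-fold (p = 0.0045), and USP47, a deubiquitinase of DNA polymerase beta, at 2.66-fold (p = 0.00014) and 8.11-fold (p = 0.0026) per the authors' deposited table. Small positive ratios per the authors' deposited table were those of USP37 (3.45-fold, p = 0.00024), USP38 (3.39-fold) and USP10 (1.77-fold, p = 0.00047). USP20 stood at a negative 23.8-fold (p = 0.00061) per the authors' deposited table. USP6, a gene of recent primate origin, was at a positive 52.0-fold (stepped, p = 0.00049) and the pseudogene USP32P3 at a negative 1.85-fold per the authors' deposited table. These 2 genes have close relatives in the genome, and no source used here says how reads shared between copies were assigned.

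OTUD1 was listed at a negative 113-fold (stepped, chromosome 10, 23440303 to 23440352, p = 0.0044), and the pseudogene OTUD4P1 at a negative 9.95-fold (p = 0.0018) per the authors' deposited table. OTUD7B, also called Cezanne, restrains NF-kappaB signalling and had negative features of 19.5-fold (stepped, p = 0.00045) and 42.4-fold (p = 0.0041) per the authors' deposited table. The OTUD4P1 feature lies within PARP11 on the opposite strand. Of the VCP adaptors, UBXN4 had the largest negative ratio of all members at 545-fold (stepped, p = 0.00029), UBXN6 was at a negative 38.2-fold (p = 0.0016) and UBXN7, which also binds cullins, at a positive 148-fold (stepped, p = 6e-05) per the authors' deposited table.

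Several features of a gene shared a sign in some members and not in others. Of 24 member genes with more than 1 feature, 10 held both signs (41.7%), 10 only positive and 4 only negative ones, beside 58.4% with both signs among the 946 such genes of the whole table. The ligases were 17 of the 24 genes and 9 of the 10 with both signs, so 52.9% of them held both. Neighbouring features within 1000 nt of each other had the same sign in 8 of 18 member pairs (44.4%), beside 54.1% of 894 pairs in the whole table. Pairs further apart had the same sign in 12 of 16 (75%), beside 52.1% of 608. The differences were not tested.

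**Figure D4:**
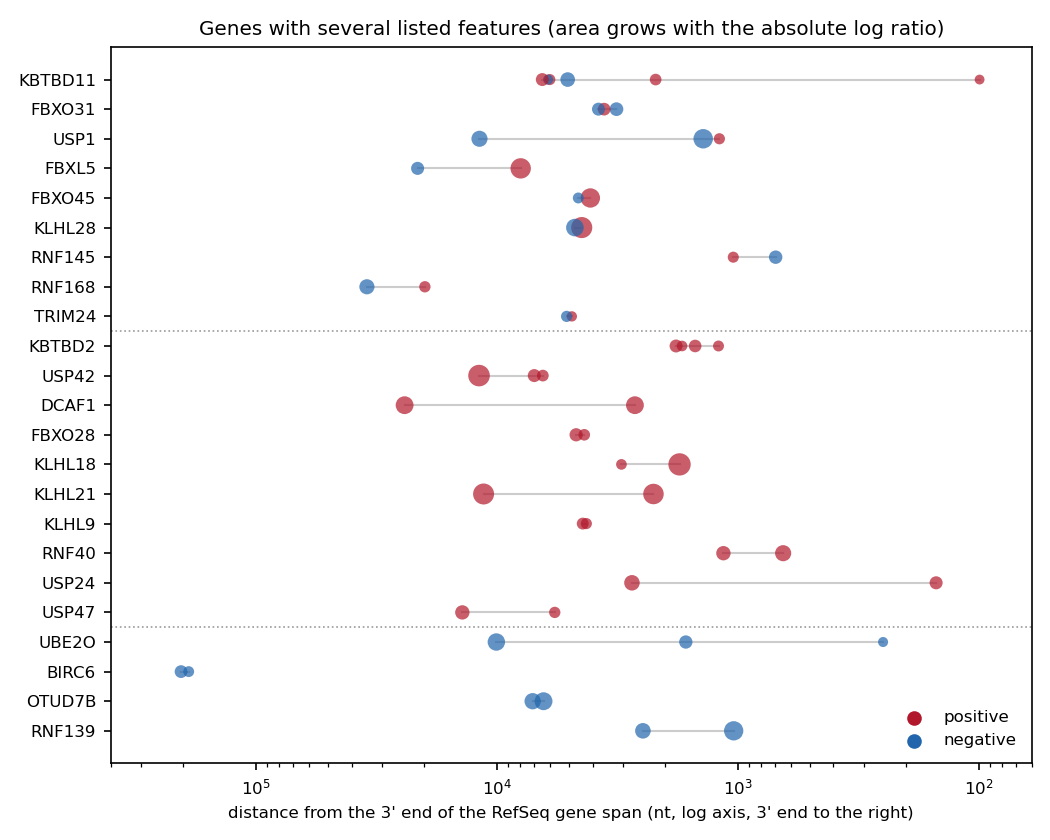
Listed features of 23 of the 24 member genes with several features, placed by their distance from the 3' end of the RefSeq gene span (x axis, nt, log scale, 3' end to the right), red for positive and blue for negative, with point area growing with the absolute log ratio. From the top, 9 of the genes drawn hold both signs, 10 only positive and 4 only negative features.

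The listed features lay mostly towards the 3' ends of their genes, as in the whole table. RefSeq spans include introns, and no feature was assigned to an exon, an intron or a UTR. Of the 125 member features 123 lay inside the span of their gene (98.4%), beside 91.7% of all listed features. A name without a RefSeq match counted as outside. All 91 member names matched, so these shares may not compare like with like. The median position was 89.2% of the span from the 5' end, beside 82.2%, and the median distance to the 3' end was 4252 nt, beside 4022 nt. The last 10% of the span held 59 of the 123 (48.0%), beside 38.9%. By class these were 15 of 26 deubiquitinase features (57.7%), 5 of 7 conjugating enzyme features (71.4%) and 36 of 85 ligase features (42.4%). The first 10% of the span held 7 of the 123 (5.69%), beside 6.58% of all listed features. All 7 were ligase features (8.24% of the ligase features inside their span), among them those of UBR2, TRIM35, RNF168 and KLHL21. Positive and negative member features had medians of 91.3% and 84.5% of the span, beside 82.0% and 82.7% over all listed features of each sign.

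**Figure D5:**
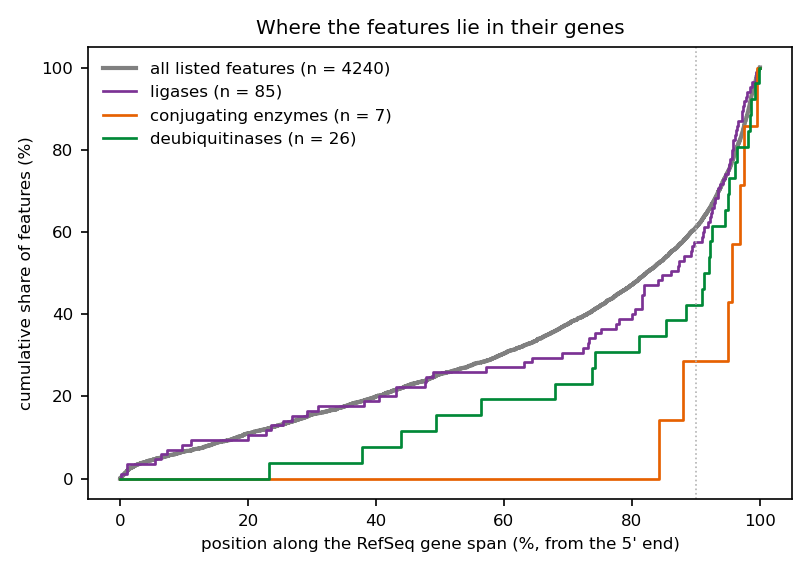
Cumulative share of features (y axis, percent) by position along the RefSeq gene span (x axis, percent from the 5' end) for all listed features and for the 3 classes, with a dotted line where the last 10% begins. The deubiquitinase and conjugating enzyme curves rise later than that of all listed features, of which 38.9% lie in the last 10%, and the ligase curve runs close to it.

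Gene assignment was uncertain for a few members. Besides ITCH, the feature named TRIM73 lay outside its gene's span, and the TRIM39 feature is shared with the readthrough gene TRIM39-RPP21. Another gene lay on the opposite strand at 8 member features, among them USP3, KBTBD4, TRIM11 and UBXN6. No member feature overlapped the window from 250 bases before to 50 bases after a RefSeq gene start, and no sequence of the features themselves was used here.

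Other genes of the pathway, outside the naming rule, were also of both signs. Of 143 symbols of further ligases and their adaptors 49 were listed, 30 positive and 19 negative by leading feature (61.2%, beside 58.9% of all listed genes), with 20 stepped. The 4 of smallest p-value were all positive and stepped per the authors' deposited table: IRF2BP2 at 294-fold (p = 4.7e-09), ASB7 at 96.0-fold (p = 9e-08), ZNRF2 at 256-fold (p = 8e-07) and KCTD10 at 39.5-fold (p = 8.7e-07). Of 44 further deubiquitinases and SUMO proteases, 10 were listed, 5 of each sign by leading feature, and BRCC3 held features of both signs. YOD1 was at a negative 10.8-fold (p = 1.4e-05), BRCC3, which cleaves chains at DNA breaks, at a positive 6.67-fold (p = 3.6e-05), the NF-kappaB inhibitor TNFAIP3 at a positive 125-fold (stepped, p = 6.1e-05) and MINDY2 at a negative 4.23-fold (p = 0.0001) per the authors' deposited table. Of 68 proteasome, VCP and COP9 signalosome symbols 7 were listed, 6 positive and 1 negative by leading feature, with 6 positive and 4 negative features in all. COPS2, NPLOC4 and PSMD11 each held a feature of either sign. COPS2 was at a positive 155-fold (stepped, p = 2.4e-07), NSFL1C at a positive 31.5-fold (stepped, p = 2.4e-05), NPLOC4 at a positive 3.90-fold (p = 0.00015) and the proteasome subunit PSMD4 at a negative 2.29-fold (p = 0.00037) per the authors' deposited table.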

How the data were processed

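The authors' deposited table of their comparison of decitabine and DMSO was the only data file. Per the submitters' processing notes, STAR 2.7.3a and hg38 were used. How features were scored, corrected for input and depth, and combined over libraries is not stated. The deposited log ratio was read as a natural log: taken so, 1415 ratios are multiples of 0.5 (relative tolerance 1e-08), and with base 2 none (0). Nothing marks the deposited p-value as adjusted. With no value per library, no test, error, depth or leave-one-out fit could be made, and the planned count-based fit was not run.

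From the table were computed folds, sign counts, medians, 95% Wilson intervals and distances to RefSeq gene spans (GRCh38.p14, all 91 member names matched). Scripts were tested on simulated data. The members and gene lists were chosen with earlier results of these data known. Genes were named by leading feature: within each family those of smallest p-value and largest ratio, and all with 3 or more features or both signs. Some genes that this rule would name are not reported. Alternatives left out stepped ratios, weak p-values, small ratios or doubtful names. Python 3.11.15, pandas 2.3.3, numpy 2.4.6 and matplotlib 3.10.9 were used.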

Additional observations from a re-analysis of the deposited data

How the results depend on the processing

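The recomputed positive shares drew on the same features as the reported values, and some settings left a class unchanged. Many of the intervals were also wide, so staying inside them was likely from the start and does not show stability. Of 32 such shares, 31 stayed inside the interval of the value reported. The exception was the deubiquitinases with ratios under 8-fold, a setting chosen after the data were seen, at 75% positive (12 features) against 57.7%. Without stepped ratios the positive share was 46.7% for all members, 46.3% for ligases, 25% for conjugating enzymes and 61.1% for deubiquitinases, beside 45.3% of all listed features. The median positive ligase feature was then 2.95-fold instead of 4.68-fold, and the negative deubiquitinase median 9.95-fold instead of 19.5-fold, the latter still within its interval from order statistics; the cause was not tested. Replicates could not be left out in turn. No paired analysis was possible because the table holds no value per library. Depth is unknown, so the precision of any ratio is too.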

Other observations

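The 23 positive stepped member features differed widely in p-value at like ratios. At 109-fold RNF121 had p = 2.6e-05 and RNF125 p = 0.0026 per the authors' deposited table. A set of 7 features (1 each in FBXO45, FBXL14, RNF125, UBR2, TRIM73, KLHL21 and KLHL28) had p-values above 0.0005, chosen after the values were seen. Ordered by ratio from 92-fold to 254-fold, their p-values went down at each of the 6 steps, from 0.0035 to 0.00056, per the authors' deposited table. That order depends on where the cut was placed, so nothing is concluded from it. USP6, at 52.0-fold with p = 0.00049 per the authors' deposited table, lay just under the cut and would have broken the order. The other 16, from 31.0-fold to 541-fold, had p-values between 5.1e-12 and 0.00049 and went down or stayed level at 9 of 15 steps. Over all listed features, 37.0% of the positive stepped features had p above 0.0005, beside 30.4% of the members. What sets the p-value at a given ratio was not tested, since the values per library were not analysed here.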
